A study of Mus musculus with 101 samples.

Results

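Thoc1, 2900052N01Rik, Gm4791 and Gm31698 were the 4 genes followed here, out of 43513 gene symbols with a copy-number value in mouse mammary tumours. They were chosen by their copy values in KB2P tumours, in which short stretches of DNA stood above their surroundings, so their values in KB2P tumours are given as a description without a test. Genomic DNA of 98 tumours and 3 spleens had been sequenced at low coverage, and each gene had 3 values per sample, namely an unsegmented log2 ratio, the log2 value of its segment and a whole-number copy score in which 2 is neutral. The KB2P tumours (n = 25) are named for a conditional loss of Brca2 and Trp53, the KB1P tumours (n = 31, of which 10 are titled KB1PM, a name whose meaning is not given in the sources used here) for a loss of Brca1 and Trp53, the KB1(L1363P)P tumours (n = 24) for a Brca1 missense variant together with loss of Trp53, and the KP tumours (n = 18) for a loss of Trp53, which all 4 models share. In the usual form of these models the recombination is driven by Cre under a keratin 14 promoter, which acts in epithelial cells. All 25 KB2P tumours were adenocarcinomas, as were 29 KB1P, 3 KB1(L1363P)P and 6 KP tumours, and the labels give a median epithelial share of 100% in KB2P, 100% in KB1P, 1% in KB1(L1363P)P and 0% in KP tumours. The 3 spleens came from mice of the KB1(L1363P)P, KB1P and KP models, and a spleen of the KB2P model was not analysed here. Whether tumours came from different mice is not stated in the labels, and the p-values cover only sample-to-sample spread, which may be technical.

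A copy-number gain in a tumour is usually read from whole chromosomes, arms or focal amplifications that arise as the tumour grows, while a mouse colony can also carry inherited stretches of extra or missing DNA that differ between strains. Read counts in a tumour do not by themselves separate the sources of a step. Thoc1 encodes a subunit of the THO complex, which joins with RNA helicases and adaptor proteins to form TREX, the complex that couples transcription to messenger RNA export. Gm4791 is annotated as protein coding, 2900052N01Rik and Gm31698 as long non-coding RNAs, and no role is given here for these 3 genes.

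The members lie at 2 places in the genome (coordinates of GRCm38.p6, from RefSeq). 2900052N01Rik (chr9:46913603-46927366), Gm4791 (chr9:46998741-47003860) and Gm31698 (chr9:47119106-47183682) follow each other on chromosome 9, with gaps of 71.4 and 115.2 kb between them. The 2 genes that lie wholly inside the chromosome 9 step are shown by the sequence around their starts, from 250 bases before to 50 bases after the annotated start (RefSeq, GRCm38.p6, plus strand), because these are fixed points inside the raised stretch. The transcribed part is in capitals.
2900052N01Rik: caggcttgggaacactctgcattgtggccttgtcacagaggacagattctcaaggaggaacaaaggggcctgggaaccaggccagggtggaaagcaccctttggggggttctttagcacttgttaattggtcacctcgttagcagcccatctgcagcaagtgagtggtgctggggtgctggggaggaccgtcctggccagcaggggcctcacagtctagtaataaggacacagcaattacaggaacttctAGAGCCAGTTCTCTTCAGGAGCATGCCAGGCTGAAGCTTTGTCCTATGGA
Gm4791: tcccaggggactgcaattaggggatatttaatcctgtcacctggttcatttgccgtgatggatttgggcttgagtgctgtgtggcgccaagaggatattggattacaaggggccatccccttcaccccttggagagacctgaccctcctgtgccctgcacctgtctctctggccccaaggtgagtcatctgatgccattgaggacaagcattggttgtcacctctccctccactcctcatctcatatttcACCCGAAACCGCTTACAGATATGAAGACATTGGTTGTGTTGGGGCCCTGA
The window of 2900052N01Rik (chr9:46913353-46913652) had a GC content of 54.7% with 2 CpG dinucleotides, and that of Gm4791 (chr9:46998491-46998790) had 52.7% with 4.

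Thoc1 (chr18:9958180-9995484) lies alone on chromosome 18. Counts were made in bins of 20 kb, so 2900052N01Rik and Gm4791 each touch 2 bins, Thoc1 touches 3 and Gm31698 touches 5.

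To separate a short step from a gain of the whole chromosome, the log2 ratio of each gene was set against the median of the 40 nearest placed genes, 20 on each side, that begin at least 500 kb away. This difference is called the local step, and the level of those neighbours the flank. It could be computed for 32716 genes. The noise between neighbouring log2 ratios had medians of 0.05 in each tumour genotype. In the spleens no segment value was larger than 0.005 in size, and the median log2 ratio of the 3 spleens lay within 0.001 of 0 in 27.0% of genes and within 0.05 in 98.6%. What the ratios were taken against is not given in the sources used here, and whether the spleens served as that baseline was not tested. KB2P replicates 10 and 12 had nearly the same segment profile (r = 0.985 across genes), while their residuals around it correlated at 0.41, as in other KB2P pairs. Leaving out replicate 12 moved no KB2P difference by more than 1 SD of the KB2P tumours. A single tumour could hardly move a mean of the group so far, so the effect of this likeness was not tested. The local step at Brca2, the gene targeted in KB2P, ranged from -0.58 to -0.01 with a median of -0.14 in KB2P tumours. It ranged from -0.22 to 0.12 with a median of -0.08 in KB1P, from -0.16 to 0.06 with a median of -0.08 in KB1(L1363P)P and from -0.22 to 0.01 with a median of -0.10 in KP tumours. The ranges overlapped, so this gene does not check the labels of single tumours.

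On chromosome 9, every KB2P tumour had a raised local step. In replicate 15 the segmentation placed the border of a broad segment there, and not a short segment over 2900052N01Rik and Gm4791. The local step at 2900052N01Rik had its lowest value at 0.96, its median at 1.12 and its highest at 1.40 in KB2P tumours. In KB1P tumours it ran from -0.03 to 0.97 with a median of 0.14, in KB1(L1363P)P tumours from 0.03 to 0.27 with a median of 0.14, and in KP tumours from -0.70 to 0.23 with a median of 0.05. The 3 spleens had -0.03, 0.00 and 0.10. Of the 73 tumours of the other genotypes, 1 reached the lowest KB2P value. The KB2P mean of 1.14 ± 0.10 (SD, n = 25) corresponds to 2.2 times the flank level.

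Gm4791 followed the same pattern at a similar height. Its local step ran from 0.65 to 1.24 with a median of 1.06 in KB2P tumours, from -0.02 to 1.19 with a median of 0.13 in KB1P, from -0.04 to 0.16 with a median of 0.06 in KB1(L1363P)P and from -0.65 to 0.15 with a median of 0.03 in KP tumours. The spleens had -0.09, -0.03 and 0.05. Again 1 of 73 tumours of the other genotypes reached the lowest KB2P value. The KB2P mean was 1.07 ± 0.11 (SD, n = 25), or 2.1 times the flank level.

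Gm31698 stood lower than both. Its local step ran from 0.09 to 0.78 with a median of 0.68 in KB2P tumours, from -0.10 to 0.63 with a median of 0.09 in KB1P, from -0.08 to 0.59 with a median of 0.04 in KB1(L1363P)P and from -0.71 to 0.12 with a median of 0.05 in KP tumours. The spleens had -0.03, 0.02 and 0.08. The groups overlapped, with 22 of 73 tumours of the other genotypes at or above the lowest KB2P value, which came from KB2P replicate 15. Without that tumour the lowest KB2P value was 0.57, and 3 of 73 tumours reached it. The KB2P mean was 0.65 ± 0.14 (SD, n = 25), or 1.57 times the flank level.

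Thoc1 split the KB2P tumours. Its local step ran from -0.05 to 1.11 with a median of 0.80 in KB2P tumours, from -0.10 to 0.77 with a median of 0.02 in KB1P, from -0.30 to 0.17 with a median of -0.01 in KB1(L1363P)P and from -0.13 to 0.27 with a median of 0.01 in KP tumours. The spleens had 0.00, 0.00 and 0.05. In 19 KB2P tumours the local step lay between 0.72 and 1.11, with a mean of 0.85 ± 0.09 (SD), or 1.8 times the flank level. In the other 6 it lay under 0.5, the value used here to divide them. Replicates 2, 3 and 14 were near 0, at -0.05, 0.06 and -0.04. Replicates 4, 9 and 23 were intermediate, at 0.28, 0.38 and 0.26, so that these tumours are not shown to lack the step.

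**Figure D1:**
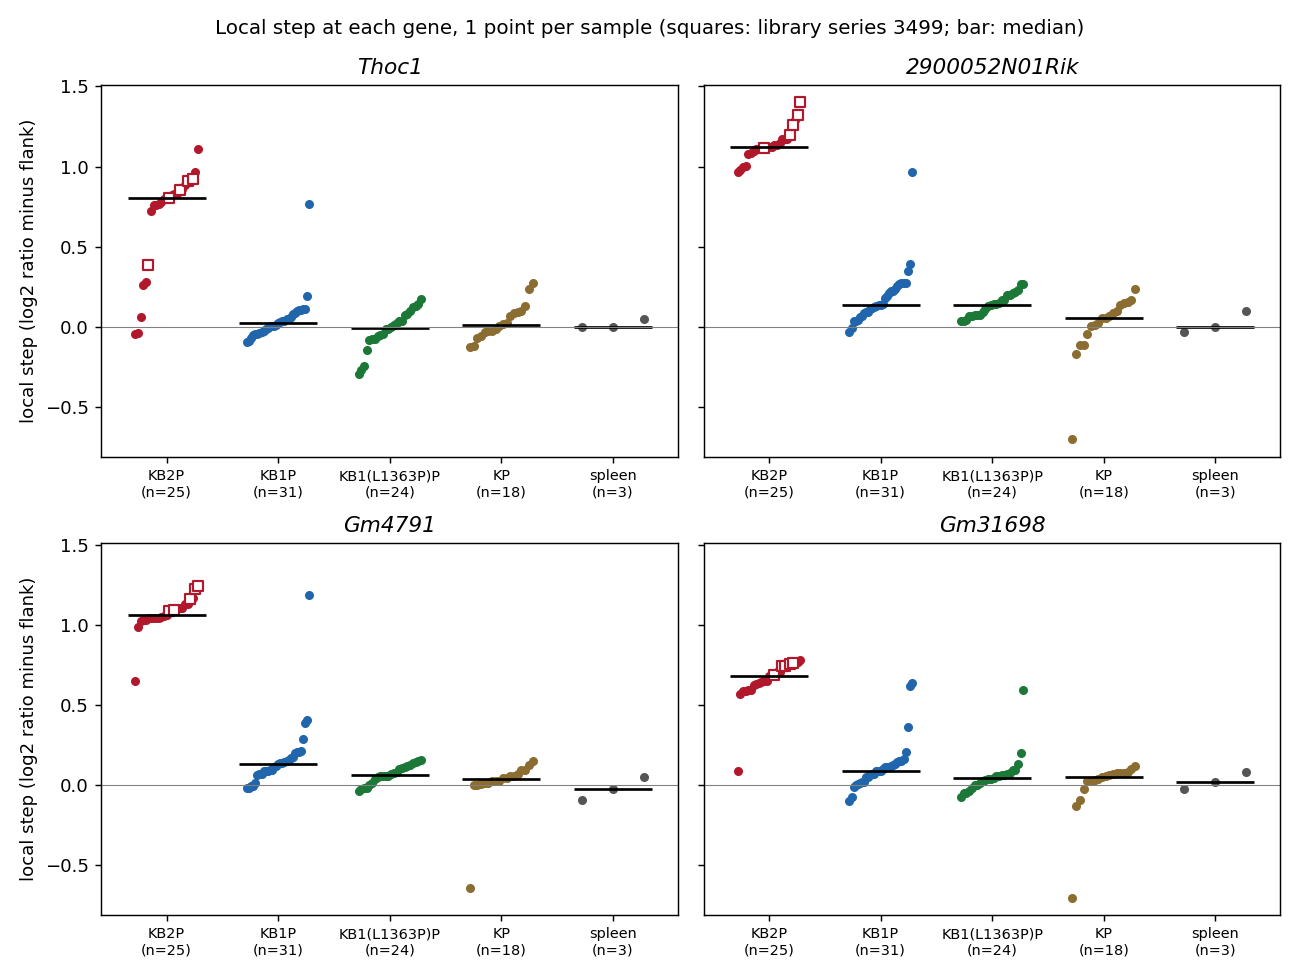
Local step (log2 ratio minus the median of flanking genes) at each of the 4 genes, 1 point per sample, in KB2P, KB1P, KB1(L1363P)P, KP and spleen. Squares are tumours of library series 3499 and black bars are medians. At 2900052N01Rik and Gm4791 the KB2P tumours start at 0.96 and 0.65, with 1 KB1P tumour among them, while at Thoc1 6 of 25 KB2P tumours lie at 0.38 or below.

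The deposited copy scores also called gains in most KB2P tumours, but at Thoc1 they did not mark the same tumours as the local steps. KB2P replicates 3, 9 and 14 had a Thoc1 score of 3 with local steps of 0.06, 0.38 and -0.04. Replicates 17 and 18 had a Thoc1 score of 2 with local steps of 1.11 and 0.86. A score above 2 was present in 22 of 25 KB2P tumours at 2900052N01Rik and at Gm4791, in 21 at Gm31698 and in 20 at Thoc1. Of all 43513 symbols, 0.00689% had a score above 2 in at least 22 KB2P tumours, 0.00919% in at least 21 and 0.0161% in at least 20, which restates the choice of the genes. Gains at Thoc1 were called in 6 of 31 KB1P, 2 of 24 KB1(L1363P)P and 1 of 18 KP tumours, where 41.3%, 9.44% and 35.4% of all symbols were gained in at least as many tumours of that genotype. At each of the chromosome 9 genes gains were called in 2 KB1P and 1 KB1(L1363P)P tumours and in 0 KP tumours, against 81.8% and 36.1% of symbols gained in at least as many KB1P and KB1(L1363P)P tumours. The 3 spleens had a score of 2 at all 4 genes. The highest copy scores were 9 at Gm4791 in KB2P replicate 24, 8 in replicate 8 and 7 in replicate 9, where the flank of the gene was itself raised.

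The chromosome 9 step was present over a wide range of levels of the surrounding chromosome. Over the KB2P tumours the flank of Gm4791 ran from -0.76 to 1.11, with an SD of 0.42, whereas the local step had an SD of 0.11. At the lowest flank, in replicate 2, the step was 1.13, and at the highest flank, in replicate 24, it was 1.23. A copy score can therefore miss a step that is present. In replicates 2 and 19 the score at 2900052N01Rik was 2 with local steps of 1.14 and 0.98. Replicate 15 had the same score with a local step of 1.12, but that step was measured across the border of a broad segment. There the log2 ratio of 2900052N01Rik was 0.70, and the segment values were 0.00 at Gm4791 and -0.89 at Gm31816. The flank of Thoc1 ran from -0.68 to 0.50. KB2P replicate 2, at the lowest flank, had a Thoc1 step of -0.05, and replicate 14, at the highest, had -0.04. The flank of Thoc1 was beyond 0.3 in size in 4 of the 6 KB2P tumours with a Thoc1 local step under 0.5 and in 4 of the 19 above it.

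**Figure D2:**
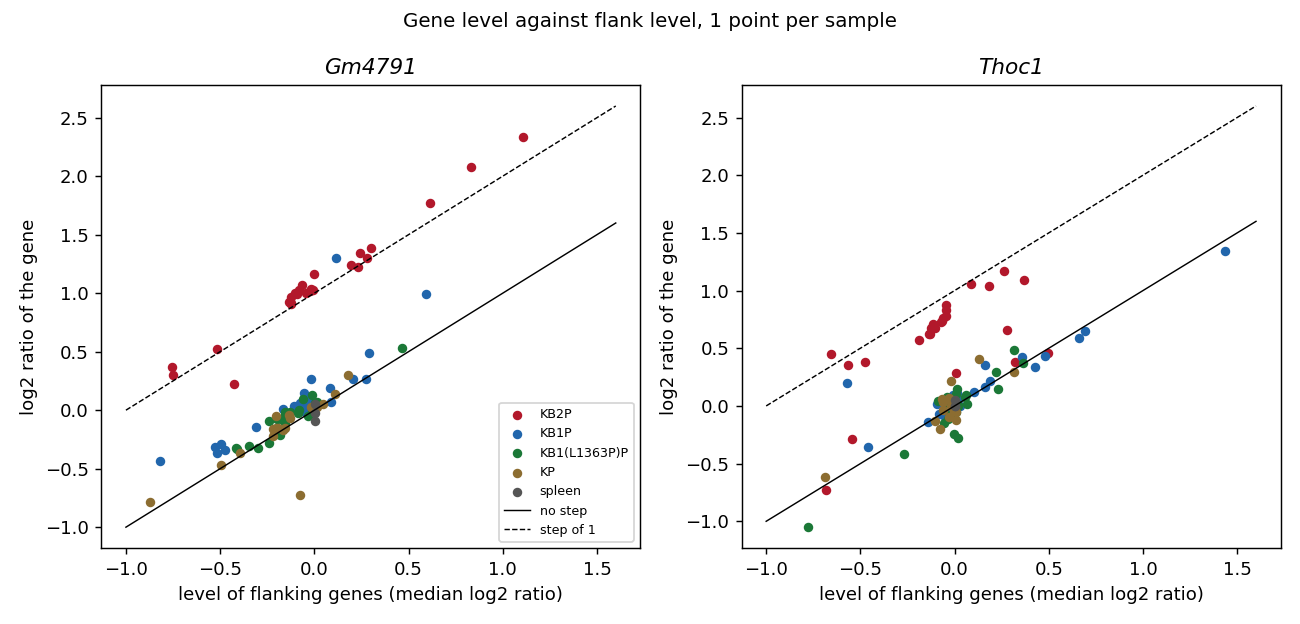
Log2 ratio of Gm4791 and of Thoc1 against the median log2 ratio of the flanking genes, 1 point per sample. The solid line marks no step and the dashed line a step of 1. KB2P tumours run along the dashed line at Gm4791 over flanks from -0.76 to 1.11, and at Thoc1 they divide between a raised set of 19 tumours and 6 lower ones, of which 3 lie near the line of no step and 3 above it.

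The 6 KB2P tumours with a Thoc1 local step under 0.5 all carried the chromosome 9 step, with local steps at Gm4791 between 1.05 and 1.16. In the other 19 tumours Gm4791 ranged from 0.65 to 1.24, so that the ranges overlapped.

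**Figure D3:**
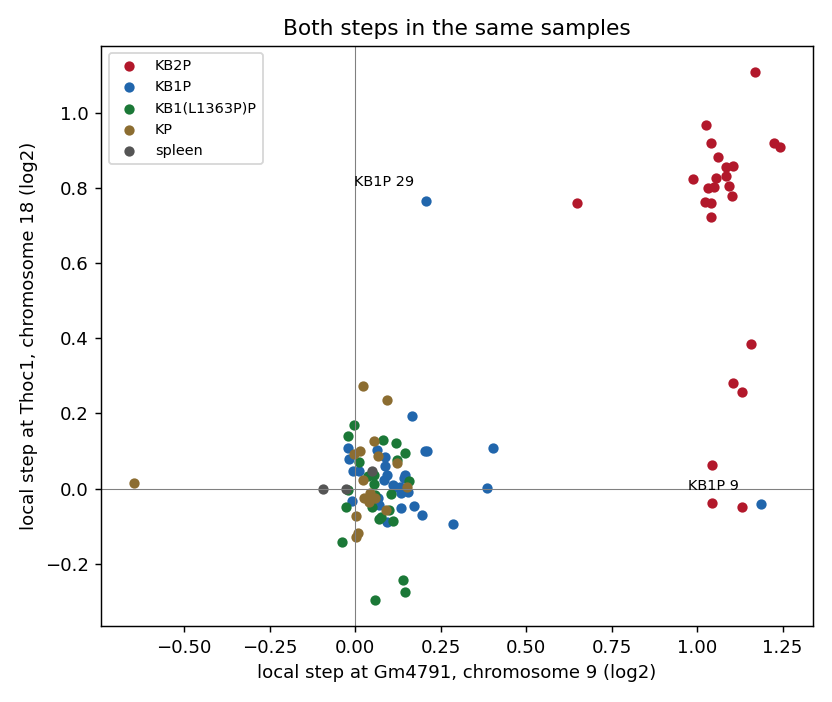
Local step at Thoc1 (chromosome 18) against local step at Gm4791 (chromosome 9), 1 point per sample. All 25 KB2P tumours are raised at Gm4791, 19 of them with 0.72 or more at Thoc1 and 6 with 0.38 or less. The lowest of them at Gm4791, replicate 15 at 0.65, was measured across the border of a broad segment. KB1P replicate 9 (1.19 at Gm4791) and KB1P replicate 29 (0.77 at Thoc1) each carry 1 step.

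The segmented profiles placed the edges of the steps between the same genes in nearly every KB2P tumour that carried them. The segment that held 2900052N01Rik and Gm4791 contained only these 2 placed genes, a span of 90.3 kb, in 24 of 25 KB2P tumours. The exception was replicate 15, in which these genes ended a segment of 43867.5 kb with a value of 0.00. In that tumour the log2 ratio of Gm31698 was -0.34 and its local step 0.09, and Gm31816 to the right had a segment value of -0.89. On chromosome 18 the segment held Thoc1 and Usp14, which encodes a deubiquitinating enzyme of the proteasome, a span of 72.0 kb, in 18 of 25 KB2P tumours. In replicate 17 the local step at Thoc1 was 1.11 and the segment value 0.00, with the flank at -0.66. The local step at Usp14 had a median of 0.68 over KB2P tumours.

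The genes outside the steps stood near 0. On chromosome 9 the neighbour to the left, the long non-coding RNA gene Gm31614, had a median local step of 0.09 in KB2P tumours and ends at position 46838611. The neighbour to the right, Gm31816, had a median of 0.05 and starts at 47259985, so that the step is at most 421.4 kb wide. Cadm1, a cell adhesion molecule further to the right, had a median of 0.07. On chromosome 18 Gm23350 ends at 9763262 and Rock1 starts at 10064401, which bounds the step at 301.1 kb. Their median local steps in KB2P tumours were -0.08 and -0.09.

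A gene that crosses an edge carries a segment value between those inside and outside. Gm31698 had a segment value at 0.50 of the way from the outside value of Gm31816 to the inside value of Gm4791 in 24 of 25 KB2P tumours, within 0.005, and at 0.75 in replicate 19. Colec12, a scavenger receptor of the collectin family that lies next to Thoc1, had the same weight of 0.50 between Gm23350 and Thoc1 in 18 of 18 KB2P tumours. The segment values of Gm31698 and Colec12 thus lie midway between 2 levels, and the median local step of 0.68 at Gm31698 does not by itself show a lower step inside the raised stretch. The rule that combined bins into genes is not given in the sources used here.

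**Figure D4:**
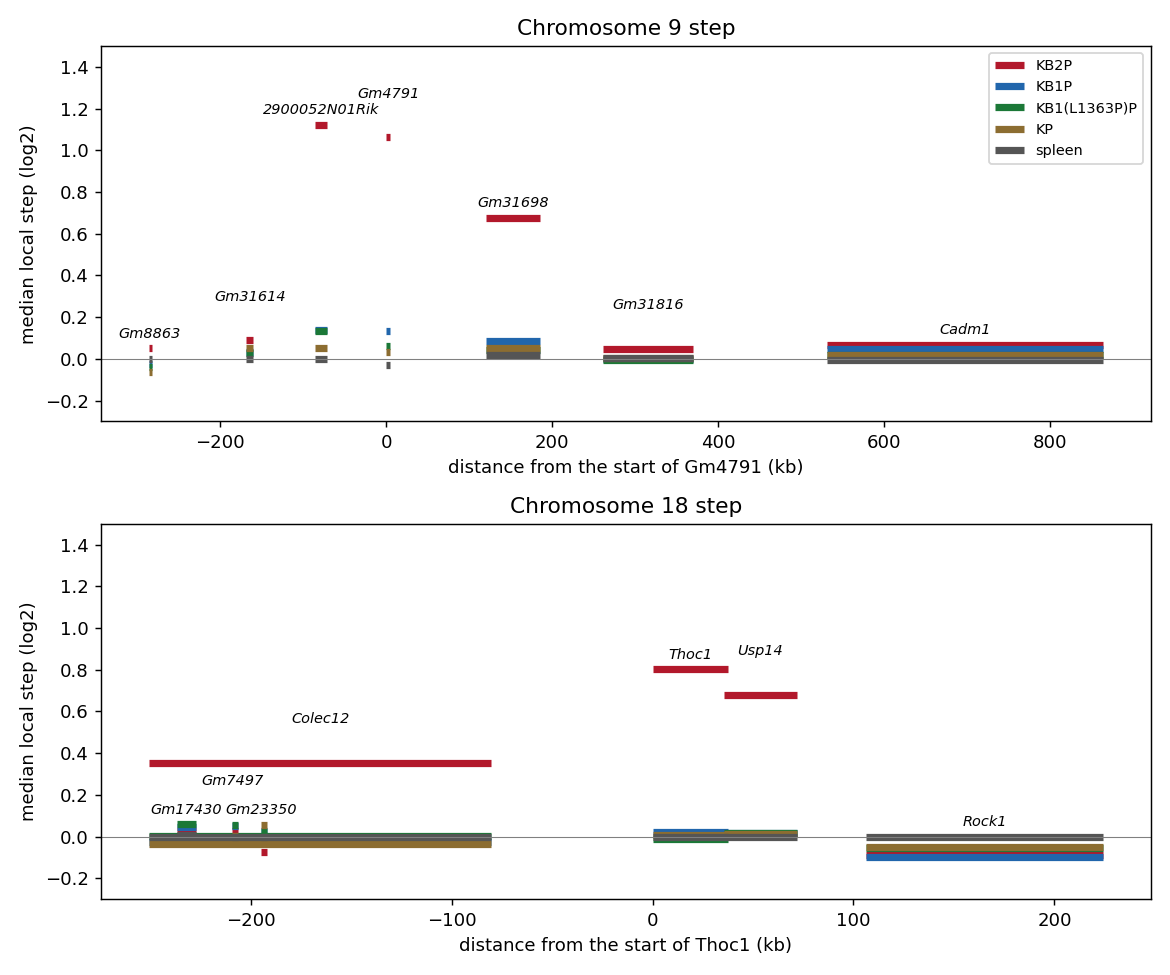
Median local step of each placed gene around both steps, against the distance in kb from the start of Gm4791 (upper panel) and Thoc1 (lower panel), coloured by group. Bars span the genes, with a minimum drawn width of 3 kb. In KB2P tumours 2900052N01Rik and Gm4791 stand at 1.12 and 1.06 between Gm31614 (0.09) and Gm31816 (0.05), and Thoc1 and Usp14 stand at 0.80 and 0.68.

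Single tumours of the KB1P genotype carried a step with the same edges. KB1P replicate 9, a sarcomatoid tumour of library series 5289, had local steps of 0.97 at 2900052N01Rik, 1.19 at Gm4791 and 0.62 at Gm31698. Its segment spanned the same 90.3 kb, and Gm31698 had the same weight of 0.50. Its local step at Thoc1 was -0.04. KB1P replicate 29, an adenocarcinoma whose title is KB1PM, had a local step of 0.77 at Thoc1, a segment of the same 72.0 kb and a weight of 0.50 at Colec12, with 0.21 at Gm4791. Its copy score at Thoc1 was 2, since the flank lay at -0.57.

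Other changes at these genes had other borders. KB1P replicate 27 had a segment of 1593.7 kb over the chromosome 9 genes, with a segment value of 0.97. KP replicate 7 had a segment of 1067.8 kb at -0.78, with local steps of -0.70, -0.65 and -0.71 at 2900052N01Rik, Gm4791 and Gm31698. In KB1P replicate 26 Thoc1 lay in a segment of 500.6 kb with a copy score of 7. Its unsegmented local step was -0.10, with a log2 ratio of 1.34 and a flank of 1.43. Only its segment value stood above the flank, by 0.34. A segmented step of more than 0.3 at 2900052N01Rik or Gm4791 was present in 25 of 25 KB2P and in 2 of 73 other tumours. In KB2P replicate 15 it was 0.45, at the border of a broad segment. At Gm31698 such a step was present in 24 of 25 KB2P and in 3 of 73 other tumours. At Thoc1 it was present in 19 of 25 KB2P and in 2 of 73 other tumours, KB1P replicates 26 and 29. Of all placed genes, 0.00611% had such a step in at least 25 KB2P tumours, 0.00917% in at least 24 and 0.0183% in at least 19, and these shares were also fixed by the choice of the genes. Away from these places the most frequent segmented step of this size in KB2P tumours lay at Mir205hg on chromosome 1. It was present in 15 of 25 KB2P and in 9 of 73 other tumours. This rank leaves out unsegmented local steps, which at Mrgprb13 on chromosome 7 ran from 1.29 to 1.70 in KB2P tumours.

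The groups that had no part in the choice of the genes were compared with limma over the local steps of 32716 genes, with Benjamini-Hochberg adjustment over all of them. Against the 3 spleens, 0 of 4 members were called in KB1P, KB1(L1363P)P or KP tumours at an adjusted p of 0.05, beside 0.0% of all genes in each comparison. At an unadjusted p under 0.05 limma had 836, 654 and 744 genes in these comparisons, with Gm4791 in KB1P among them. The difference at Gm4791 between KB1P tumours and spleens was 0.19 (SE 0.09, unadjusted p = 0.0428, adjusted p = 1), and the tumour and spleen ranges overlapped.

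Between the other tumour genotypes 1 member was called. The call was between KB1P and KP tumours, of which 29 of 31 and 6 of 18 were adenocarcinomas. Only library series 5289 held both of these genotypes, so the main fit did not separate genotype from histology and series. 2900052N01Rik averaged 0.18 ± 0.18 in KB1P tumours (SD, n = 31) and 0.00 ± 0.21 in KP tumours (SD, n = 18), a difference of 0.18 (SE 0.04, adjusted p = 0.0476 by limma), beside 0.153% of all genes called. The call was lost in 12 of 14 alternative fits, with adjusted p from 0.0492 to 1 over all 14. Leaving out spleen replicate 1 or 3, which entered only through the shared estimate of spread, gave 0.05 and 0.0509. Without the tumours with a segmented step, KB1P replicates 9 and 27 and KP replicate 7, the difference was 0.10 with an adjusted p of 0.122. Gm4791, Gm31698 and Thoc1 differed by 0.15, 0.12 and 0.02 between KB1P and KP tumours (adjusted p = 0.15, 0.275 and 0.958). KB1(L1363P)P tumours differed from KP tumours by 0.13 at 2900052N01Rik (SE 0.05, adjusted p = 1) and from KB1P tumours by -0.05 (SE 0.04, adjusted p = 0.794). In these comparisons 0 of 4 members were called, beside 0.0153% and 0.0489% of all genes. At an unadjusted p under 0.05 limma had 1350 and 2788 genes in them, including 2900052N01Rik against KP (unadjusted p = 0.00425) and Gm4791 against KB1P (unadjusted p = 0.0187).

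For description, the KB2P mean exceeded that of KB1P tumours by 0.96 at 2900052N01Rik (SE 0.04), 0.91 at Gm4791 (SE 0.04), 0.54 at Gm31698 (SE 0.04) and 0.63 at Thoc1 (SE 0.05). Against the spleens the differences were 1.12, 1.09, 0.63 and 0.66. Across all genes 3.92% were called between KB2P and KB1P tumours and 0.303% between KB2P tumours and spleens, and the comparisons share the KB2P tumours. No KB2P library lay in a series with another genotype, so genotype and library series cannot be told apart in these differences.

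Within KB2P tumours the libraries came from series 3499 (n = 5) and series 3196 (n = 20), and both carried the steps. The local step at 2900052N01Rik averaged 1.26 ± 0.11 in series 3499 and 1.11 ± 0.08 in series 3196 (SD), a difference of 0.15. Gm4791 averaged 1.16 ± 0.07 in series 3499 and 1.05 ± 0.10 in series 3196. Gm31698 averaged 0.74 ± 0.03 in series 3499 and 0.63 ± 0.14 in series 3196. Thoc1 averaged 0.78 ± 0.22 in series 3499 and 0.66 ± 0.35 in series 3196. These differences are given without a test, since the same values chose the genes. The flank of Gm4791 averaged 0.55 in series 3499 and -0.12 in series 3196, and its part in the difference of local steps was not tested. Within KB1P, tumours of series 5289 (n = 10) and of the other series (n = 21) differed by -0.05 at Thoc1, 0.06 at 2900052N01Rik, 0.04 at Gm4791 and -0.02 at Gm31698 (4 unadjusted permutation tests with 100000 resamples, p = 0.339, 0.472, 0.625 and 0.787).

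Each of the 3 spleens shares its model and number in the title with a tumour, and the KB1P spleen with 2 tumours, KB1P replicates 10 and 18. The labels do not say whether these came from the same mouse. At 2900052N01Rik the local step was 0.15 in tumour and 0.10 in spleen for KB1(L1363P)P, and 0.13 in tumour and -0.03 in spleen for KP. For KB1P it was 0.18 and 0.35 in tumour replicates 10 and 18 and 0.00 in spleen. At Thoc1 the values were -0.02 in tumour and 0.05 in spleen for KB1(L1363P)P, and -0.06 in tumour and 0.00 in spleen for KP. For KB1P they were 0.01 and -0.09 in tumour replicates 10 and 18 and 0.00 in spleen. Each of these tumours and spleens lay below the lowest KB2P value at 2900052N01Rik.

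The genes on other chromosomes whose local steps most resembled those of the members lay mainly on chromosome 7. For Thoc1 they also included 2900052N01Rik on chromosome 9, with a Pearson r of 0.795 over the 98 tumours. Mrgprb13, one of a family of receptors of sensory neurons and mast cells, had a Pearson r over the 98 tumours of 0.84 with Thoc1, 0.90 with 2900052N01Rik, 0.90 with Gm4791 and 0.81 with Gm31698. Without KB2P tumours (n = 73) these values were 0.51, 0.11, 0.12 and 0.02. Within KB2P tumours (n = 25) they were 0.135, 0.086, 0.076 and 0.07. The points share libraries, and the values over all tumours rest on the distance of KB2P from the rest. The local step at Mrgprb13 ran from 1.29 to 1.70 with a median of 1.45 in KB2P tumours. It exceeded 0.5 in 2 of 73 other tumours, which were KB1P replicate 29 at 1.46 and KB1P replicate 15 at 0.54. Mrgpra1 and Mrgprb8 followed in likeness, with r of 0.86 with Gm4791 for both. Gm18357, also on chromosome 7, was among the most alike genes for 2900052N01Rik (r = 0.859).

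The partners of Thoc1 in TREX were examined as a list of 12 genes, of which 11 were measured. Of the 10 besides Thoc1, 0 were higher and 1 was lower in KB2P tumours in each comparison with the other tumour genotypes, and the median differences over the list were -0.02 against KB1P, -0.01 against KB1(L1363P)P and -0.03 against KP. The gene was Ddx39b, an RNA helicase of TREX on chromosome 17. Its local step ran from -0.67 to 0.12 with a median of -0.20 in KB2P tumours, from -0.14 to 0.26 with a median of 0.13 in KB1P, from 0.00 to 0.23 with a median of 0.11 in KB1(L1363P)P and from -0.11 to 0.29 with a median of 0.10 in KP tumours. The differences were -0.30, -0.28 and -0.28 (limma adjusted p = 7.16e-12, 1.01e-09 and 9.73e-09), beside 3.92%, 3.93% and 4.57% of all genes called. No KB2P library shared a series with another genotype, so genotype and library series cannot be told apart in these differences either. The call was lost with segment values minus the flank, where the differences were 0.008, 0.00 and 0.00, and with centred log2 ratios. With the flank included, mean segment values of Ddx39b were 0.109 in KB2P, 0.024 in KB1P, -0.027 in KB1(L1363P)P and -0.036 in KP tumours. Against the spleens, and between the other genotypes, 0 of the 10 genes were called by limma, and Ddx39b differed from the spleens by -0.20 in KB2P tumours (unadjusted p = 0.0107, adjusted p = 0.704). At an unadjusted p under 0.05 there were 2 of the 10 genes for KB2P against spleens, 2 for KP against spleens and 0 in the comparisons of KB1P and KB1(L1363P)P tumours with spleens, with KP and with each other. Copy scores of Ddx39b were above 2 in 7 and below 2 in 3 of the 25 KB2P tumours.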

How the data were processed

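The deposited tables hold a log2 ratio, a log2 segment value and a whole-number copy score per gene symbol and sample. Per the labels' protocols the authors aligned reads, counted them in bins of 20 kb and corrected the counts for GC content and mappability. The submitters' processing notes name cutadapt 2.5, BWA 0.7.17, SAMtools 1.10, Picard and build mm10, whereas the protocol text names a human build. The log2 values were made by the authors, and what the ratios were taken against, how they were segmented and how bins became genes is not given in the sources used here. The deposited copy score equals the rounded linear copy number of the segment value in 99.992% of cells. Read depth is unknown, so no counting interval is given.

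Genes were placed by symbol in the RefSeq GRCm38.p6 table (32661 directly, 55 by an older symbol). Local steps were compared with limma 3.58.1 as contrasts of group means over 32716 genes, with Benjamini-Hochberg adjustment. Library series within KB1P were compared by permutation tests, left unadjusted because the genes were chosen. For KB2P series this planned test was run but its p-values are not given, because the same values chose the genes. The genes and lists were chosen with earlier results of these data known. Named besides the members were TREX genes called (up to 3), genes sharing a segment with a member, the nearest genes outside, and the 3 most alike genes per member. Methods were tested on simulated data. Other steps ran in SciPy 1.17.1, NumPy 2.4.6, matplotlib 3.10.9 and pandas 2.3.3 under Python 3.11.15. Alternatives covered the flank, the scale, histology, sample weights, uncertain labels, library series and single spleens. The uncertain labels were the KB1PM titles and KB1P replicate 8, whose description names another model. That tumour was otherwise kept with its genotype label. The exclusion of tumours with a segmented step, and the fits between tumour genotypes without single spleens or KB2P replicate 12, were chosen after the data were seen, and Brca2 and Mir205hg were named outside the rule.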

Additional observations from a re-analysis of the deposited data

Results flagged for a closer look

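In library series with 4 to 10 tumours of a genotype, 6 of 24 sets held a value far from the rest. Chance flags about 1 in 20 independent sets, but these sets share tumours and include the KB2P values that chose the genes. The number of flags is therefore not comparable with that rate. The local step at Thoc1 was 0.38 in KB2P replicate 9 of series 3499, while the other 4 tumours of the set lay between 0.81 and 0.92. KB1P replicate 9 of series 5289 stood at 0.97 at 2900052N01Rik, 1.19 at Gm4791 and 0.62 at Gm31698, while the other tumours of its set reached at most 0.27, 0.20 and 0.15. KP replicate 7 of series 5490 stood at -0.65 at Gm4791 and -0.71 at Gm31698, while the other tumours of its set lay at 0.00 or above at Gm4791 and at -0.13 or above at Gm31698. The chromosome 9 genes are neighbours, so these flags are not independent.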

How the results depend on the processing

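The KB2P differences kept their direction under every alternative run, but the same values chose the genes, so this is only a description. Segment values minus the flank moved the differences from spleens by more than 1 SD of the KB2P tumours (2900052N01Rik 0.96, Gm4791 0.96, Gm31698 0.49). They also moved the difference from KP so far at 2900052N01Rik (1.01). Centred log2 ratios did so against KB1P (2900052N01Rik 1.06), KB1(L1363P)P (1.13, 1.13 and Gm31698 0.74) and KP (2900052N01Rik 1.30, Gm4791 1.23, Gm31698 0.84). In adenocarcinomas only Gm31698 exceeded KB1(L1363P)P by 0.41. The number of members called between KB1P and KP was 1. It was 0 under 12 of 14 alternatives, among them leaving out spleen replicate 1 or 3, and 1 under the other two, leaving out spleen replicate 2 or KB2P replicate 12. The series difference at Gm31698 in KB2P was 0.088 with 10 flanking genes a side at 200 kb. Leaving out each tumour of series 3499 in turn gave differences from 0.08 to 0.22 at Thoc1, 0.12 to 0.19 at 2900052N01Rik, 0.09 to 0.13 at Gm4791 and 0.10 to 0.12 at Gm31698. With segment values, which include the flank, the series differed by 0.81 at 2900052N01Rik and Gm4791.

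Small uncalled differences turned sign. In the comparisons by limma, segment values were taken minus the flank, while in those of library series they include the flank. For KP minus spleen these were 2900052N01Rik (0.012 with 10 flanking genes a side, 0.006 with sample weights, 0.048 in series 5289, 0.024 without tumours with a segmented step, and -0.045 to 0.021 without single spleens), Gm4791 (-0.049 with segment values, -0.112 with centred log2 ratios, -0.054 in adenocarcinomas, and -0.002 to 0.069 without single spleens), Gm31698 (0.012 in series 5289 and 0.012 without tumours with a segmented step) and Thoc1 (-0.001 with sample weights). For KB1P minus spleen it was Thoc1 (-0.005 in series 5289), and for KB1P minus KP it was Thoc1 (-0.010 in adenocarcinomas, -0.002 without uncertain labels, -0.012 in series 5289 and -0.005 without tumours with a segmented step). For KB1(L1363P)P, centred log2 ratios gave -0.013 at Gm4791 and -0.076 at Gm31698 against spleens, and Gm31698 gave 0.14 against KB1P in adenocarcinomas and -0.001 against KP without tumours with a segmented step. Series 5289 minus the other series in KB1P gave -0.041 at 2900052N01Rik and -0.067 at Gm4791 in adenocarcinomas, and 0.13 with segment values and 0.04 without uncertain labels at Gm31698. Ddx39b gave 0.008 with segment values minus the flank in KB2P minus KB1P. The cause of these turns was not tested.

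Copy calls moved with the threshold. With segment values beyond 0.2, losses at the chromosome 9 genes were counted in 8 KB1(L1363P)P and 7 KP tumours, gains in 5 KB1P tumours, a Gm31698 loss in 2 KB2P tumours, and a Thoc1 loss in 1 KB1P and 2 KB1(L1363P)P tumours. With segment values minus the flank, losses at the chromosome 9 genes numbered 0 in KB1P and 1 in KP, gains at 2900052N01Rik and Gm4791 numbered 0 in KB1(L1363P)P, Thoc1 gains numbered 2 in KB1P, 0 in KB1(L1363P)P and 0 in KP, and Thoc1 losses numbered 0 in KB2P, KB1(L1363P)P and KP. Depth is unknown and limits what a gene of 2 bins can show. No paired analysis was possible because the replicate numbers follow the order of deposition, and numbers in the titles tie only 1 spleen of a model to its tumours.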
